A study of Drosophila melanogaster with 9 samples.

Results

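Fly eye colour comes from red drosopterins, which are pteridines, and brown ommochromes. The 10 genes described here make or carry these pigments, and each was found by its symbol among the 13947 genes of the count table. The transporters are w, st and bw. The ommochrome enzymes are v and cn, and the pteridine group is Pu, pr, se, ry and Hn. The counts come from 3 shSet2 libraries of nuclear RNA from photoreceptors, made from males 10 days after eclosion that were sampled 6 h after lights on (ZT6). Set2 deposits trimethylation of lysine 36 on histone H3, and the libraries are labelled replicates 1, 2 and 3. The series' ATAC-seq samples and any RNA of control flies were not analysed here, so the values describe shSet2 photoreceptors and measure no effect of Set2.

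All 3 libraries carried a UAS-GFP-Msp300KASH transgene at attP2, Rh1-Gal4, the ry506 allele and an shRNA against Set2, in a background given as w mutant. The study's methods give w1118 for the stock with the KASH transgene and Rh1-Gal4, and name no w allele for the Set2 shRNA stock. Rh1-Gal4 is active in outer photoreceptors from the end of pupal life, and GFP-tagged nuclei were pulled out of head material with an antibody. A single shSet2 line was used. The KASH transgene carries w+mC as its marker and the Rh1-Gal4 insertion carries ry+. The shRNA insertion carries v+ and was kept in a v1 stock. A count on w, ry or v can therefore come from the chromosomal gene or from a marker transgene, and the counts of reads per gene cannot tell them apart. The cross that combined the stocks is not described in the sources used here.

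In the pigment cells and photoreceptors of the fly eye, ommochrome synthesis starts from tryptophan and pteridine synthesis starts from GTP. The precursors or pigments are moved into pigment granules by ABC transporters of the ABCG family. The product of w pairs with that of st for the ommochrome branch and with that of bw for the pteridine branch. Some of the same enzymes also make tetrahydrobiopterin, a cofactor of aromatic amino acid hydroxylases.

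Library totals ranged from 3657491 to 4960498 counts, and 5802 genes reached the minimum of 10 counts in each of the 3. Levels are given as CPM (counts-per-million) on library totals multiplied by TMM factors of 0.995 to 1.01 from edgeR. The floor of detection was set at 3 counts, which equals 0.813, 0.794 and 0.608 CPM in replicates 1, 2 and 3. Set2, the shRNA target, was counted 313, 370 and 369 times, and without control libraries these counts do not check the knockdown. The 8 photoreceptor genes ninaE, trp, ninaC, inaD, norpA, chp, Arr1 and Arr2 all reached the minimum, at a median of 7364 CPM. They bore out the label of photoreceptors, but apart from ninaE they do not set outer photoreceptors apart from inner ones. The outer photoreceptor opsin gene ninaE had a mean of 8332 CPM, against a median of 11.9 CPM for the 4 opsins of inner photoreceptors. Of the other cell types, the summed CPM of 5 glial markers was 225 to 264, that of 4 fat body markers 588 to 786 and that of 3 muscle markers 11.9 to 48.0. These lists were uneven. In the fat body list Fbp1 had 0 counts in every library, whereas apolpp had 776, 618 and 543 CPM in replicates 1, 2 and 3. In the muscle list Act88F had 0 counts in every library, whereas Mhc had 43.9, 11.6 and 15.4 CPM. The series calls its replicates biological without saying which flies went into each, so p-values measure the spread between these 3 libraries.

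The pigment genes split into w and all others. Of their summed counts, 99.1% lay on w, and the other 9 genes had 620 counts together over the 3 libraries. The genes w, st, ry, Pu, pr and Hn reached 10 counts in each library, and bw, v, cn and se fell short of it. At a minimum of 50 counts only w and pr passed, so most of the group sat close to the depth limit of these libraries.

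**Figure D1:**
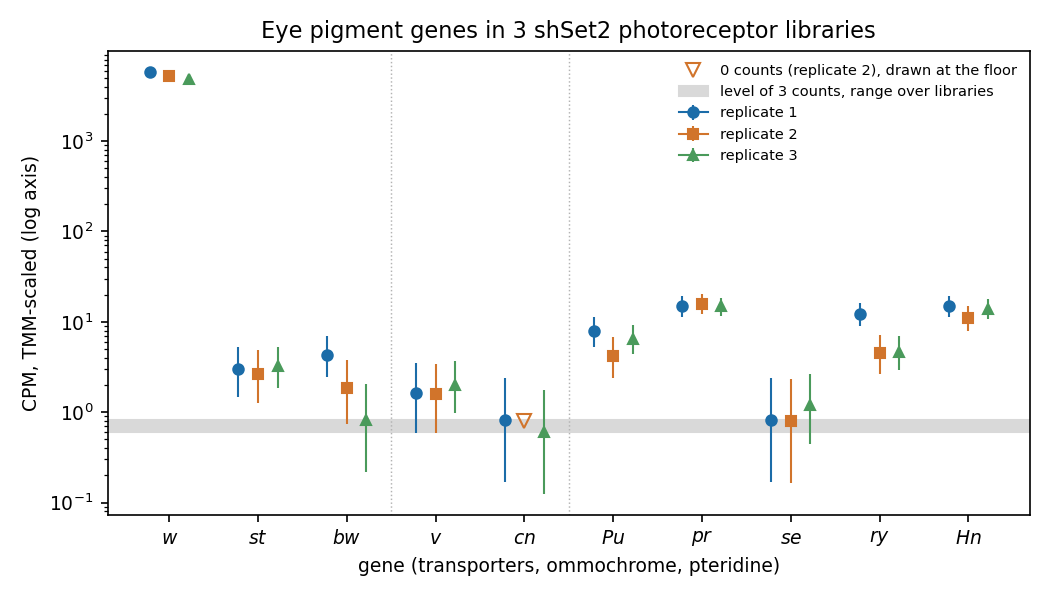
Level of each eye pigment gene in CPM (log axis) in the 3 shSet2 libraries. Points are libraries, bars are exact 95% Poisson intervals that cover counting error only, the grey band is the level of 3 counts, and the open triangle marks a library with 0 counts. The gene w lies between 4896 and 5764 CPM, whereas no other gene exceeds 15.9 CPM.

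The transporter subunit w (FBgn0003996, chrX:2790599-2796466 in Release 6, the assembly behind dm6) had 21274, 19637 and 24162 counts in replicates 1, 2 and 3. This was 0.582% of all counts in replicate 1 (95% Wilson interval 0.574% to 0.590%), 0.518% in replicate 2 (0.510% to 0.525%) and 0.487% in replicate 3 (0.481% to 0.493%). The intervals do not overlap, and replicate 1 was the highest. In CPM the level was 5764, 5195 and 4896, a mean of 5285 ± 441 (SD, n = 3), and the highest library was 1.18-fold above the lowest. By summed counts w was at place 27 of the 13947 genes.

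Levels of different genes were compared per kb of gene span, the distance from start to end in the RefSeq gene table, because exon lengths were not used here. On this scale, which counts introns and so lowers genes with long ones, w had 982, 885 and 834 CPM per kb in replicates 1, 2 and 3. Its mean of 901 ± 75.1 (SD, n = 3) was at place 12 of 5758 tested genes with a span. The level of w thus lay within the range of the phototransduction genes. It overlapped that of chp (chaoptin, a rhabdomere adhesion protein), with 968, 1082 and 1111 CPM per kb. All 3 libraries of w were above those of Arr1 (arrestin 1), with 638, 619 and 707 CPM per kb, and below those of ninaC, with 1120, 1239 and 1175. Mean levels per kb of norpA (phospholipase C) and inaD (a scaffold of phototransduction) were 396 ± 18.3 and 300 ± 14.7 (SD, n = 3), lower than w by 2.27-fold and 3.00-fold. For norpA this order depended on its span. In CPM, which ignores span, norpA had a mean of 16942, above the 5285 of w, and inaD had 932.

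The high count on w did not extend to its annotated neighbours at the same level. The gene w lies inside the span of kirre, an adhesion protein gene of 394149 bp, which had 399, 450 and 647 counts. CG32795, which ends 31 bp from w, had 3479, 3537 and 5014 counts, so w had 5.41 times its summed counts. How reads in overlapping genes were assigned is not given in the sources used here. The counts on w are uncertain to that extent.

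The partners of w were close to the floor. The gene st (FBgn0003515, chr3L:16497651-16500460), which encodes the ommochrome partner, had 11, 10 and 16 counts, or 2.98, 2.65 and 3.24 CPM in replicates 1, 2 and 3. The mean of st was 2.96 ± 0.299 CPM (SD, n = 3). The Poisson intervals of its libraries overlapped, but with so few counts this does not show equal levels. The gene bw (FBgn0000241, chr2R:23527805-23538499), which encodes the pteridine partner, had 16, 7 and 4 counts, or 4.34, 1.85 and 0.811 CPM. Replicate 1 was highest for bw, 5.35-fold above replicate 3, and its mean was 2.33 ± 1.81 CPM (SD, n = 3), or 1.32 CPM without replicate 1. Both lie beside other genes: st is inside the span of CG43373, with 116, 114 and 127 counts, and bw shares 456 bp with mi, with 78, 113 and 86 counts.

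Within each library, w exceeded st per kb by 926-fold, 940-fold and 723-fold in replicates 1, 2 and 3. The mean ratio was 863 ± 122 (SD, n = 3), and the ratio from summed counts was 842 (exact 95% binomial interval 611 to 1196, counting error only). The ratio of w to bw per kb was 2423, 5113 and 11009, a mean of 6182 ± 4392 (SD, n = 3), and 4393 from summed counts (3019 to 6666). Without replicate 3 the mean was 3768. The counts of bw were few, and its coefficient of variation (CV) between libraries was 77.6%, against 33.3% from counting noise alone. The cause of the width of that range was not tested. No test of these ratios was made, because the levels that form them are the description itself.

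**Figure D2:**
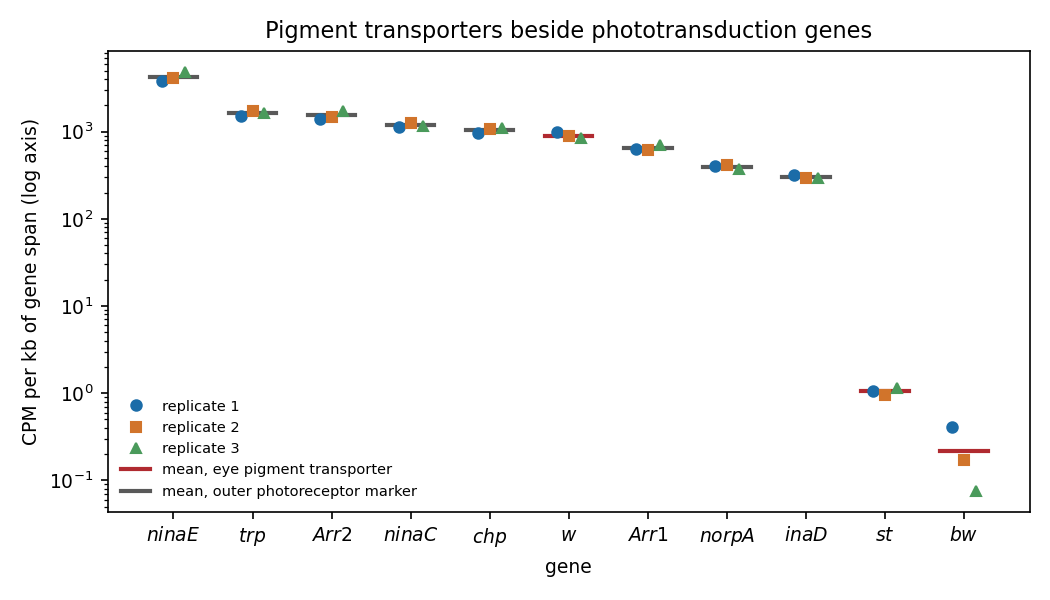
CPM per kb of gene span (log axis) of the pigment transporters w, st and bw and of 8 photoreceptor genes, named outer photoreceptor markers in the legend. Points are the 3 libraries and horizontal lines their means, red for transporters and grey for markers. The gene w, at 901 CPM per kb, lies between chp and Arr1, whereas st and bw lie at 1.05 and 0.218.

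The ommochrome enzymes were barely counted. The gene v (FBgn0003965, chrX:10923972-10925631) encodes tryptophan dioxygenase, which opens the pathway. It had 6, 6 and 10 counts, or 1.63, 1.59 and 2.03 CPM in replicates 1, 2 and 3. The Poisson intervals of the libraries overlapped, but with so few counts this does not show equal levels. The summed 22 counts of v gave 1.77 CPM (exact 95% Poisson interval 1.11 to 2.68). The gene cn (FBgn0000337, chr2R:7782797-7785067) encodes kynurenine monooxygenase, which makes the hydroxykynurenine used for the brown pigment. It had 3, 0 and 3 counts, at or under the floor in every library. Its 0 counts in replicate 2 have an exact 95% Poisson upper limit of 0.976 CPM, and the summed 6 counts gave 0.484 CPM (0.177 to 1.05). Per kb, cn was at 0.199 times v from summed counts (exact 95% binomial interval 0.0661 to 0.507). The mean of the library ratios was 0.195, and it was 0.110 without replicate 1 and 0.292 without replicate 2. CG46385, which ends 159 bp from cn, had 11076, 15439 and 18079 counts, and CG43901, which ends 535 bp from v, had 730, 786 and 905. Of the 2271 bp span of cn, 1734 bp overlap asRNA:CR45108, which was not matched in the count table. How reads there were assigned is not given, so the counts of cn and its ratio to v are uncertain to that extent.

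In the pteridine group, pr and Hn were the highest genes after w. The gene pr (FBgn0003141, chr2L:20073719-20075458) encodes pyruvoyl-tetrahydropterin synthase, an early enzyme of both drosopterin and tetrahydrobiopterin synthesis. It had 55, 60 and 73 counts, or 14.9, 15.9 and 14.8 CPM in replicates 1, 2 and 3. The mean of pr was 15.2 ± 0.594 CPM (SD, n = 3). Its CV of 3.91% was the lowest of the group but lay under the 12.6% of counting noise alone, so these counts do not show that pr was steadier than the others. The gene Hn (FBgn0001208, chr3L:7760453-7763166) encodes phenylalanine hydroxylase, an enzyme that uses tetrahydrobiopterin. It had 55, 42 and 69 counts, or 14.9, 11.1 and 14.0 CPM, with replicate 2 the lowest and a mean of 13.3 ± 1.98 CPM (SD, n = 3). Hn ends 66 bp from the clock gene Clk, which had 1308, 703 and 737 counts. Replicate 1 was high for Clk and not apart for Hn. Per kb, w was 103-fold above pr and 183-fold above Hn.

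The first enzyme of the branch, GTP cyclohydrolase, is encoded by Pu (FBgn0003162, chr2R:21175315-21182608). It had 29, 16 and 32 counts, or 7.86, 4.23 and 6.48 CPM in replicates 1, 2 and 3. Replicate 2 was the lowest, and the mean was 6.19 ± 1.83 CPM (SD, n = 3). Per kb, pr exceeded Pu by 7.95-fold, 15.7-fold and 9.56-fold, which is 10.2-fold from summed counts (exact 95% binomial interval 7.81 to 13.5). Pu has the longer span by far, 7294 bp against 1740 bp, and by counts alone pr was 2.44 times Pu. The gene se (FBgn0086348, chr3L:8520552-8521489) encodes pyrimidodiazepine synthase, a glutathione transferase of the omega class needed for drosopterins. It had 3, 3 and 6 counts, at the floor in replicates 1 and 2. Per kb it was 1.21 times Pu from summed counts (0.600 to 2.24), an interval that includes 1. It overlaps its paralog GstO2 by 61 bp, which had 19, 20 and 20 counts, and its counts are uncertain where reads match both genes.

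Xanthine dehydrogenase, which modifies pteridines and purines, is encoded by ry (FBgn0003308, chr3R:13032528-13038020). It had 45, 17 and 23 counts in replicates 1, 2 and 3. Its level was 12.2 CPM in replicate 1 (exact 95% Poisson interval 8.89 to 16.3), 4.50 in replicate 2 (2.62 to 7.20) and 4.66 in replicate 3 (2.95 to 6.99). Replicate 1 stood above both others with no overlap of intervals, and the highest library was 2.71-fold above the lowest. The mean was 7.12 ± 4.40 CPM (SD, n = 3), or 4.56 CPM without replicate 1. The Rh1-Gal4 insertion carries ry+ and the KASH transgene carries w+mC, and whether the counts of ry and w came from these markers cannot be told. Per kb of the spans of the chromosomal genes, w was 695-fold above ry. The lengths of the markers were not used.

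Ranked by mean CPM per kb of gene span, the order was w, pr, Hn, ry, v, st, se, Pu, bw and cn, at 901, 8.73, 4.91, 1.30, 1.05, 1.05, 1.00, 0.849, 0.218 and 0.209. The 3 libraries of w did not overlap with those of pr, those of pr not with Hn, those of Hn not with ry, and those of Pu not with bw. The other 5 neighbouring pairs overlapped, so the places of ry, v, st, se and Pu among themselves and of bw and cn are not separated by the spread. The first 3 places were the same with each replicate left out. The median over the 10 genes, detected or not, was 1.05 CPM per kb, beside 0.651 over all 13870 genes of the table with a span. The 5758 tested genes with a span had a higher median, 5.39 CPM per kb. Of these tested genes, 33.9% were higher than pr, 53.8% higher than Hn and between 87.8% and 91.3% higher than ry, st or Pu.

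To ask which genes differed between the 3 libraries by more than read-counting noise, each gene was fitted with a Poisson model in edgeR and its deviance tested, with Benjamini-Hochberg adjustment over the 5802 genes. The test compares libraries and not conditions. Of the 6 pigment genes that could be tested, 2 were called at an adjusted p of at most 0.05, w and ry, beside 25.3% of all tested genes. For w the adjusted p was 2.55e-64 with a CV of 8.34% between libraries. For ry it was 0.000423 with a CV of 61.8%, against 18.8% from counting noise alone. The share of genes called depends on depth: 79.7% of genes with a mean over 1000 counts were called, where w lies, and 5.92% of genes with a mean under 30 counts, where st, ry and Pu lie. The call of ry rested on replicate 1. Without it the adjusted p of ry was 0.963, and w alone was called.

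The other 4 tested genes did not pass, with adjusted p of 0.931 for st, 0.267 for Pu, 0.950 for pr and 0.504 for Hn in edgeR. This does not show equal levels, since Pu ranged 1.86-fold between libraries and Hn 1.34-fold. With no count minimum, bw was also called, at an adjusted p of 0.0270 in edgeR. The biological coefficient of variation (an estimate of the spread left after counting noise) had a median of 0.137 over the 6 tested pigment genes, beside 0.139 over all tested genes. With 3 libraries edgeR draws the value of each gene toward a level shared by many genes, so the likeness of these medians shows little about the pigment genes. For pr the estimate was 0.129, although its CV of 3.91% was under its counting noise of 12.6%.

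**Figure D3:**
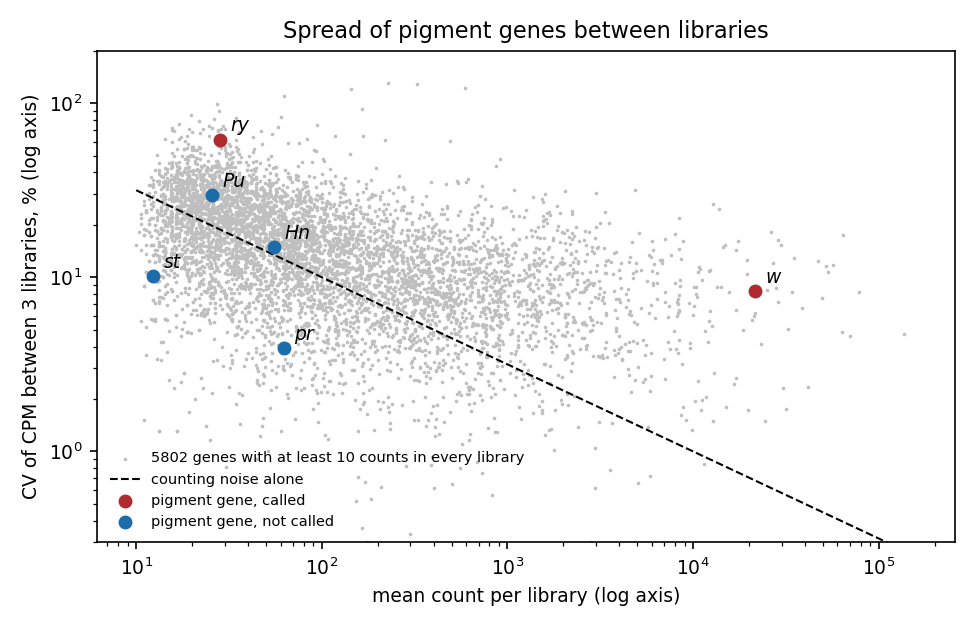
Coefficient of variation of CPM between the 3 libraries in percent against the mean count per library (both axes log). Grey points are the 5802 tested genes, the dashed line is counting noise alone, and coloured points are the 6 pigment genes with enough counts, red where called. The genes w (8.34%) and ry (61.8%) lie above the line, and pr (3.91%) and st (10.1%) below it.

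Among the 6 tested pigment genes, replicate 1 was highest for w, ry, Pu and Hn, beside 35.4% of all tested genes. Of these, Pu and Hn were not called as varying between libraries. Of the pigment genes under the count minimum, bw and cn were also highest there, cn with 3, 0 and 3 counts. Some genes listed as markers of other cells were higher in replicate 1 too. All 7 genes listed as markers of retinal pigment and cone cells (Pdh, rdhB, Crys, B-H1, B-H2, ct and pros) were highest in replicate 1. Whether each of these genes is absent from photoreceptors was not checked here, so the list does not single out pigment and cone cells. The summed level of the 7 genes was 347 CPM against 239 in replicate 2 and 225 in replicate 3. Most of it lay on pros, which alone had 247, 171 and 145. The pigment cell gene Pdh had 38.5, 22.2 and 36.5 CPM, so replicate 3 was close to replicate 1. Of the 7, 3 were called as varying between libraries (Pdh, ct and pros), beside 25.3% of all tested genes. The lowest, Crys, had 9 counts in each library. The muscle gene Mhc had 43.9 CPM in replicate 1 against 11.6 and 15.4. Glial and fat body markers did not share 1 direction: 3 of the 5 glial markers were highest in replicate 1, whereas nrv2 and repo were not. The fat body gene apolpp had 776, 618 and 543 CPM in replicates 1, 2 and 3, and Lsp2 had 10.0, 25.4 and 44.8, lowest in replicate 1. The summed level of the 9 pigment genes other than w was 60.4, 42.6 and 47.8 CPM in replicates 1, 2 and 3. The part of other cell types in the values of ry and bw was not tested. In a mixture of nuclei, fewer cells of a type cannot be told apart from less RNA per cell.

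Other genes of the same pathways, their paralogs and their suppliers had a median of 1.93 CPM per kb, beside 1.05 for the 9 pigment genes other than w. Of 41 such genes, 39 were found in the table under their identifiers, 28 reached the minimum, and 5 of these were called as varying between libraries (snu, Mocs1, CG9663, CG17646 and cin), beside the 25.3% above. In the ommochrome list, kar, which encodes a transporter of the monocarboxylate family named for its eye colour mutant, had 51.2, 59.0 and 65.9 CPM. It was lowest in replicate 1 and reached 8.17 ± 1.02 CPM per kb (SD, n = 3), close to pr. Kyat (kynurenine aminotransferase) was at 5.35 ± 1.16 CPM (SD, n = 3). The peroxidase gene cd (cardinal) had 1, 2 and 5 counts, and KFase was not matched in the table.

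In the pteridine list, 6 of 8 genes reached the minimum. Of the molybdenum cofactor genes, whose product xanthine dehydrogenase needs, Mocs1 was at 19.9 ± 7.05 CPM, cin at 15.9 ± 4.31 and mal at 7.55 ± 1.34 (SD, n = 3). Mocs1 had 88, 91 and 58 counts, so replicate 3 was lowest (adjusted p = 4.38e-05, edgeR), and cin had 72, 42 and 84 (adjusted p = 0.0405, edgeR). Thus neither followed the pattern of ry, which was high in replicate 1 alone. The thioredoxin-like gene cl was at 6.71 ± 1.00 CPM, DhpD (dihydropterin deaminase) at 3.58 ± 1.01 and Pcd (pterin carbinolamine dehydratase) at 3.36 ± 0.254 (SD, n = 3). Sptr (sepiapterin reductase) and Dhpr (dihydropteridine reductase) had 3 to 16 counts in a library. Of the aldehyde oxidase paralogs of ry, AOX1 was at 12.1 ± 2.93 CPM and AOX3 at 5.90 ± 1.68 (SD, n = 3), and AOX2 and AOX4 had at most 1 count in a library.

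**Figure D4:**
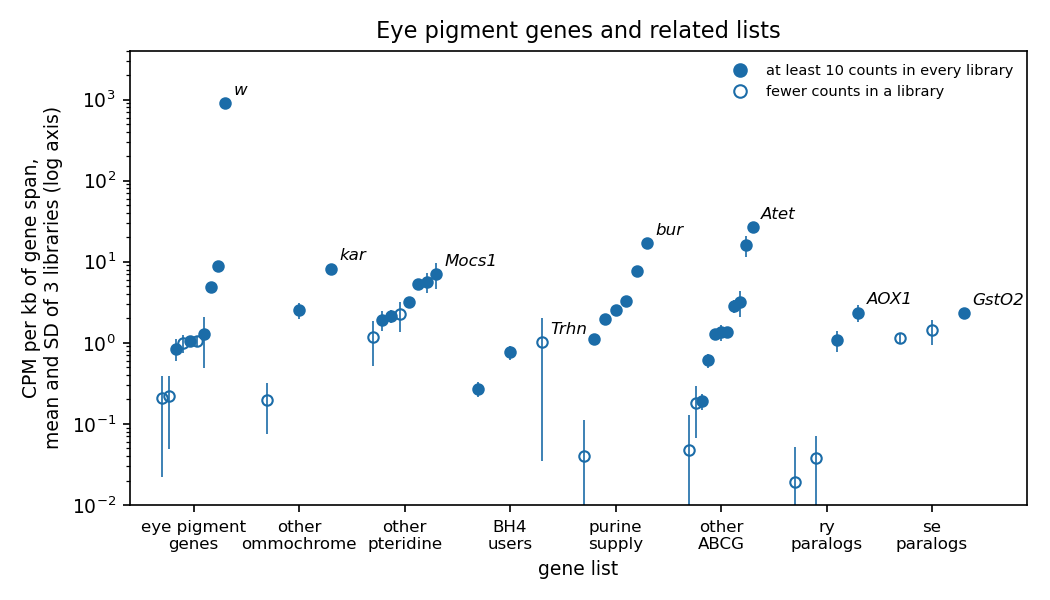
Mean CPM per kb of gene span (log axis) of the eye pigment genes and 7 related lists, with bars of 1 SD over 3 libraries, cut off at the lower edge of the plot. Filled points are genes that passed the count minimum, and the highest gene of each list is named (BH4 is tetrahydrobiopterin). The next highest genes after w (901) are Atet (26.6) and bur (16.9).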

How the data were processed

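Nuclear RNA-seq counts of 3 shSet2 libraries, made from 10 ng of RNA each, were analysed. The authors deposited whole-number counts of reads per gene without normalization. The submitters' processing notes name Trimmomatic, Bowtie2, STAR, SAMtools, deepTools and DESeq2 and the builds dm6 and BDGP6, with no role given. The counting tool, its strand setting and its handling of overlapping genes are not given in the sources used here. The table held 1 blank row, which was left out, and 0 columns of other samples. Symbols were matched for 13884 of 13947 identifiers and gene spans for 13870, from the RefSeq table of Release 6 plus ISO1 MT. Levels per kb were planned on coding lengths, which were not used here, and gene spans took their place.

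CPM used library totals of 3657491, 3794547 and 4960498 scaled by TMM in edgeR 4.0.16 (R 4.3.3). Variation between libraries was tested with edgeR's glmFit at dispersion 0 and an intercept alone, on the deviance with Benjamini-Hochberg adjustment over genes with at least 10 counts in every library. Dispersion came from estimateDisp. Alternatives were DESeq2 1.42.0 size factors, unscaled totals, other count minimums, a Pearson statistic and each replicate left out. Wilson, Poisson and binomial intervals are at 95% (scipy 1.17.1), and with the floor of 3 counts they cover counting error only. The text names the 10 pigment genes, list genes with at least 10 counts in every library, neighbouring genes, Set2 and cell type markers. Named list genes with fewer counts were picked with their values known. The members and lists were chosen with earlier results of these data known.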

Additional observations from a re-analysis of the deposited data

How the results depend on the processing

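No paired analysis was possible because the counts cover 1 group, shSet2. Levels per kb of coding length were not run. Of the 6 pigment genes with at least 10 counts in every library, 2 passed a minimum of 50 counts, and 9 of the 10 pigment genes passed a minimum of 1. With each replicate left out in turn, 1 to 2 pigment genes, 550 to 1236 of all genes and 2 to 6 of the related genes were called as varying between libraries, against 2, 1466 and 5 with all 3. The lowest counts of pigment and related genes came without replicate 1 and that of all genes without replicate 3, at 550 (868 without replicate 1). Of the related genes called, CG17646, CG9663 and cin were lost without replicate 1, cin also without replicate 2 and Mocs1 without replicate 3, whereas snu was called each time, and ras and kar were called without replicate 2. Fewer libraries give the test less to work with. With 1 library dropped, the common biological coefficient of variation was 0.109 to 0.161 (the latter without replicate 2), against 0.132, and the median of the pigment genes 0.139 to 0.169, against 0.137. With no count minimum that median was 0.179, and the cause was not tested. The ratio of w to bw ranged from 3768 without replicate 3 to 8061 without replicate 1. None of the 20 scaling alternatives moved a pigment gene's mean CPM by more than 1 SD. Depth limits bw, v, cn and se.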

Other observations

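Purine supply genes, which feed the GTP used for pteridines, had a median of 2.53 CPM per kb of gene span over 7 genes, beside 2.71 over the 8 pteridine genes other than the pigment genes. The GMP synthetase gene bur was at 93.2 ± 8.12 CPM (SD, n = 3) and the IMP dehydrogenase gene ras at 35.7 ± 5.54. Both genes have classic eye colour mutants. Of the early purine enzymes, Paics was at 11.7 ± 0.326 CPM, Gart at 10.2 ± 1.23, Pfas at 9.61 ± 0.859 and Prat2 at 7.28 ± 1.04, whereas Prat had 1 count in all. None of the 6 tested purine genes was called as varying between libraries by edgeR at an adjusted p of 0.05, and 1 had an unadjusted p under 0.05 (ras, 0.0267, adjusted p = 0.0909).

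Other ABCG transporters were far below w. Per kb, w was 33.8-fold above Atet, the highest of them, at 316 ± 12.8 CPM (SD, n = 3). Per kb the second was snu, needed for the barrier of the cuticle, at 16.0 against 26.6 for Atet. In CPM, which ignores span, snu had the higher mean, 334 against 316, with 436, 244 and 322 CPM in replicates 1, 2 and 3 (adjusted p = 6.15e-44, edgeR). CG17646 was at 51.1 ± 9.42 CPM (adjusted p = 0.00489, edgeR) and CG9663 at 26.1 ± 9.13 (adjusted p = 1.29e-05, edgeR), both highest in replicate 3. CG31689, CG4822, CG9664, CG5853 and E23 lay between 3.80 and 19.2 CPM. CG32091 and CG11069 had fewer than 10 counts in a library, and CG3164 was not matched in the table.

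Besides Hn, at 13.3 CPM, 3 listed enzymes use tetrahydrobiopterin, and their mean levels were lower than that of Hn. Nos (nitric oxide synthase) was at 8.99 ± 1.82 CPM (SD, n = 3) and ple (tyrosine hydroxylase, of dopamine neurons) at 4.71 ± 0.887. Trhn, the tryptophan hydroxylase of serotonin neurons, had 21, 10 and 1 counts in replicates 1, 2 and 3.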
